A study of Bos taurus with 14 samples.

Results

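Decorin (DCN, ENSBTAG00000003505), dermatopontin (DPT, ENSBTAG00000021211) and tenascin-C (TNC, ENSBTAG00000000575) are 3 non-collagen proteins of the interstitial matrix, the meshwork between cells. They were 3 of the 27607 genes in the count table, and all 3 passed the filter on low counts that kept 13307 genes for testing. They were picked on the contrast between the maternal diets in these same calves, so their difference between the diets is given as a description, without a test. The calves were heifers born to crossbred Angus-based dams inseminated from 1 bull, and each was fed colostrum replacer and milk replacer before its liver was sampled at 30 h. CON dams received a basal diet. VTM dams received the same diet plus a vitamin and mineral premix, at 113 g per heifer per day, from 60 days before breeding until calving. Each group had 7 calves, of which the study analysed 6.

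Decorin is a small leucine-rich proteoglycan. It carries a single glycosaminoglycan chain, binds to collagen fibrils and limits their thickness, and also binds TGF-beta. Dermatopontin is a small tyrosine-rich protein that binds decorin and promotes the assembly of collagen fibrils. Tenascin-C is a large, many-armed glycoprotein, made in development and in wound repair, that signals through integrins and can weaken the adhesion of cells to fibronectin. In liver, matrix genes of this kind are mainly used by stellate cells, portal fibroblasts and the capsule rather than by hepatocytes.

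Total counts per library ranged from 13382264 to 20125409. CON calf 19 and VTM calf 10, which the study left out for low alignment, had the lowest totals. VTM calf 40 stood apart with 15395 genes at 0 counts, and CON calf 31 with a TMM scaling factor of 0.698, the lowest of the 14. Levels are CPM, a gene's reads relative to the depth of its library, scaled with TMM over all 14 libraries unless stated. Gene names were paired with 688 identifiers alone, those in the supplementary tables, and of 6 hepatocyte genes listed to check the tissue 1 was among them, TTR, which had reads in every library. Because the tissue is bulk liver, fewer cells of a type and less RNA per cell cannot be told apart.

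DCN was lower in VTM calves than in most CON calves. Its level in CON was lowest at 111 CPM in calf 19, had a median of 284 CPM, and was highest at 338 CPM in calf 31. In VTM it was lowest at 135 CPM in calf 16, had a median of 150 CPM, and was highest at 199 CPM in calf 10. The CON calves formed a high set of 5, from 236 CPM in calf 13 upward, and a low pair, calf 19 and calf 1 at 136 CPM, which lay among or below the VTM calves. Mean levels were 247 ± 90.2 CPM in CON and 158 ± 23.2 CPM in VTM (SD, n = 7 each). Over the 12 calves of the study the log2 fold change, VTM relative to CON, was -0.84 (standard error 0.19), a level 1.79-fold higher in CON. Over all 14 calves it was -0.64 (standard error 0.23), 1.56-fold higher in CON.

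DPT showed the same order with a larger difference. In CON it was lowest at 8.51 CPM in calf 1, had a median of 40.8 CPM, and was highest at 61.0 CPM in calf 25. In VTM it was lowest at 7.30 CPM in calf 34, had a median of 13.4 CPM, and was highest at 23.9 CPM in calf 28. The same 5 CON calves lay above every VTM calf, from 38.2 CPM in calf 37 upward, while calf 1 and calf 19, at 14.5 CPM, were within the VTM range. Mean levels were 38.4 ± 20.1 CPM in CON and 14.9 ± 5.16 CPM in VTM (SD, n = 7 each). The log2 fold change was -1.57 (standard error 0.38) over the 12 calves and -1.37 (standard error 0.37) over all 14, or 2.97-fold and 2.58-fold higher in CON. The lowest DPT count, 134 reads in VTM calf 34, carries a counting error of 8.64%, far below the spread between calves.

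In the 12 calves, 5 of the 6 CON calves were above every VTM calf in both genes. At least 5 of 6 CON calves were above every VTM calf in 1.19% of the 13307 genes tested, and since DCN and DPT were picked on this contrast nothing is read from that share. The 2 calves that the study left out played no part in that choice. Between them the order was opposite, with VTM calf 10 above CON calf 19 in DCN (199 and 111 CPM) and in DPT (18.2 and 14.5 CPM). With 1 calf on each side this has no replicate check.

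TNC went the other way and overlapped more. In CON it was lowest at 20.6 CPM in calf 31, had a median of 87.5 CPM, and was highest at 137 CPM in calf 37. In VTM it was lowest at 54.0 CPM in calf 34, had a median of 155 CPM, and was highest at 418 CPM in calf 28. Of the VTM calves, 4 were above every CON calf, and the other 3, at 54.0 to 91.8 CPM, lay inside the CON range. After VTM calf 28 the next calf, VTM calf 16, was at 178 CPM. CON calf 31, the library with the lowest scaling factor, was at 14.4 CPM by total counts alone and was the lowest calf on that scale too. Mean levels were 82.2 ± 37.6 CPM in CON and 164 ± 123 CPM in VTM (SD, n = 7 each). The log2 fold change was 1.06 (standard error 0.48) over the 12 calves and 0.99 (standard error 0.43) over all 14. Without VTM calf 28 it was 0.52. The 2 calves left out by the study had the same order, at 174 CPM in VTM calf 10 and 111 CPM in CON calf 19.

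**Figure D1:**
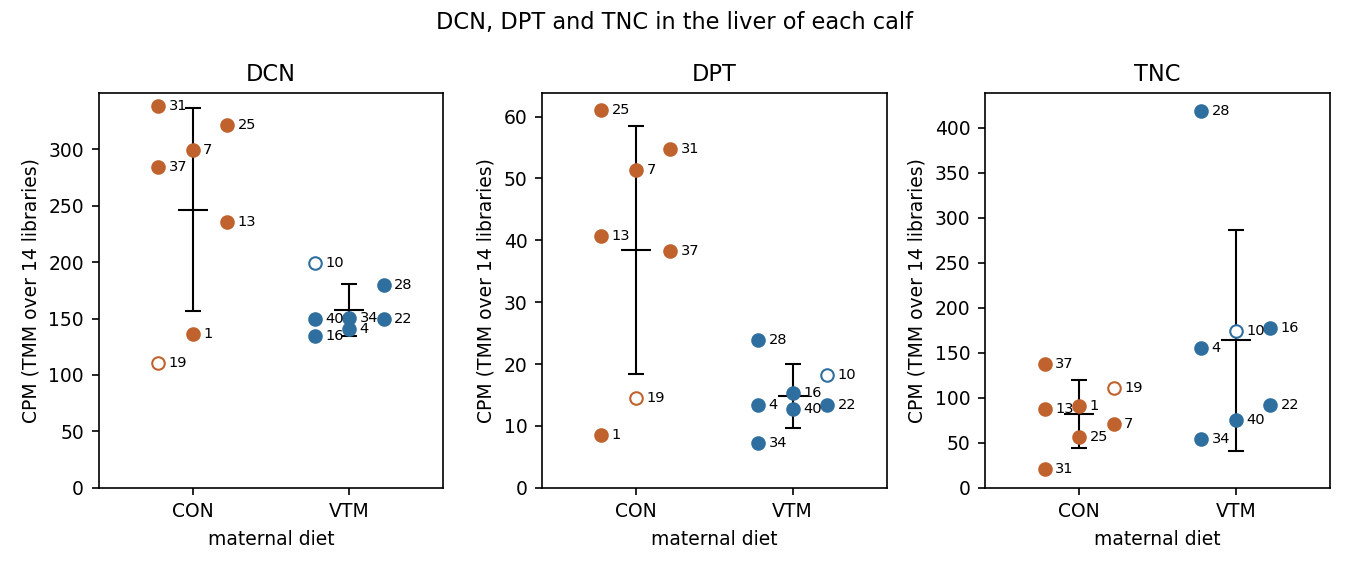
Level of DCN, DPT and TNC in CPM (TMM over 14 libraries) in each of 7 CON and 7 VTM calves. Points are calves with their numbers, open points are the 2 calves that the study left out, and bars give the mean and SD of 7 calves. CON calves 1 and 19 sit with the VTM calves in DCN and DPT, and VTM calf 28, at 418 CPM, stands far above the rest in TNC.

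Ratios of counts within a library do not depend on its scaling. DCN reads per DPT read, in CON, ranged from 5.27 in calf 25 to 7.65 in calf 19, with calf 1 apart at 16. In VTM they ranged from 7.53 in calf 28 to 20.6 in calf 34, with a median of 11 against 6.18 in CON. In 6 of the 7 VTM calves there were more DCN reads per DPT read than in any CON calf other than calf 1. TNC reads per DPT read ranged from 0.377 in CON calf 31 to 3.58 in CON calf 37 among the 5 CON calves with high DPT. They were 10.7 in CON calf 1 and 7.62 in CON calf 19, and from 5.94 to 17.5 in VTM. In this ratio the 2 CON calves with low DPT fell within the VTM range and the other 5 below it. TNC reads per DCN read ranged from 0.0610 to 0.996 in CON and from 0.358 to 2.32 in VTM, and there the groups overlapped. These ratios use the contrast on which the genes were picked, and were not tested.

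**Figure D2:**
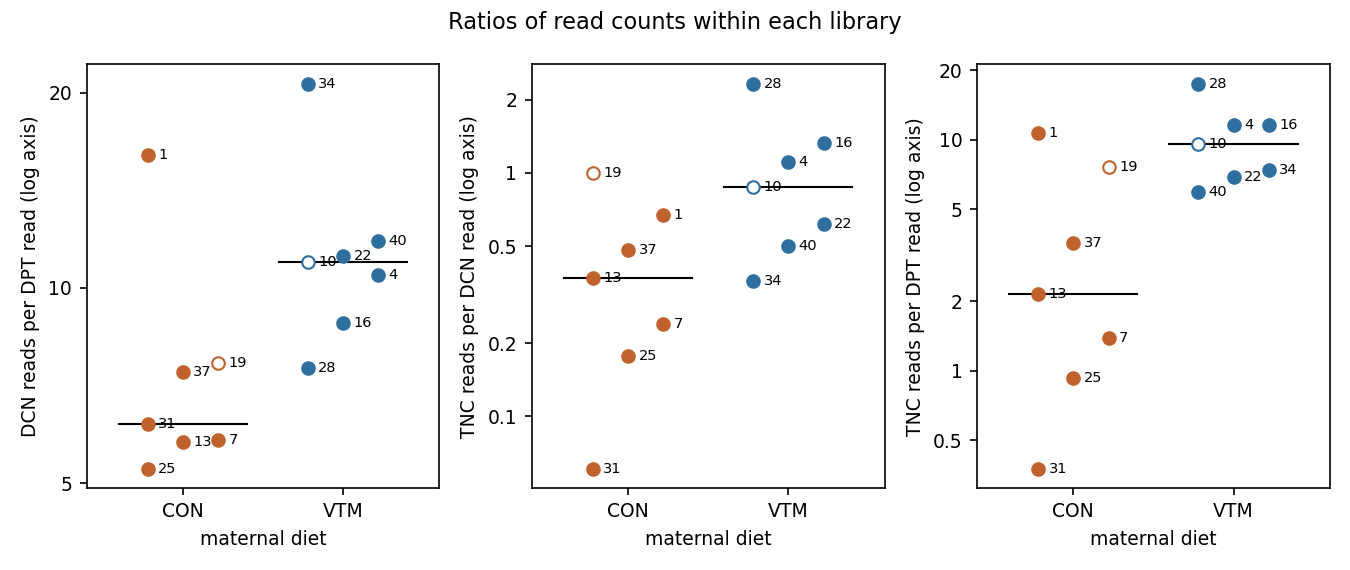
Read counts of one gene per read of another within each of 14 libraries, on log axes, with the median of each group of 7 calves as a line. Open points are the 2 calves that the study left out. In TNC per DPT, 5 CON calves lie at 3.58 or lower and all VTM calves at 5.94 or higher, with CON calves 1 and 19 among them.

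The diets were then compared for how much calves of the same group differed among themselves, a measure that a difference in level does not fix. It is not free of the choice of genes, since a low p between diets favours a small spread within groups. On log2 CPM over the 12 calves, the SD of DCN was 0.49 in CON and 0.14 in VTM, a ratio of 3.60. Over all genes tested the median SD was 0.47 in CON and 0.39 in VTM, and 58.7% of the genes had the larger SD in CON. VTM calves lay close together in DCN, from 134 to 176 CPM with scaling over the 12 calves, and 96.2% of the genes had a smaller ratio of SDs. The SD of DPT was 1.05 in CON and 0.54 in VTM, and that of TNC was 0.93 in CON and 1.05 in VTM.

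None of these differences in spread passed the test. With limma on absolute deviations from the group median, adjusted over all 13307 genes, the adjusted p was 0.924 for DCN, 0.924 for DPT and 0.934 for TNC. At an unadjusted p of at most 0.05, 2.46% of the genes had a larger spread in CON and 0.669% a larger spread in VTM, and none of DCN, DPT and TNC was among them, with unadjusted limma p of 0.189, 0.449 and 0.547. No gene of the table passed at an adjusted p of 0.05, where limma called 417 without adjustment. The mean absolute deviation of DCN was 0.31 in CON and 0.08 in VTM, and without CON calf 1 the difference shrank from -0.23 to -0.06. For DPT the difference of -0.29 became 0.10 without that calf. For TNC the difference of 0.21 became -0.06 without VTM calf 28.

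Co-variation was examined with the mean of each group removed, so that the difference between the diets does not enter. DCN and DPT varied together across calves. Over the 12 calves Pearson's r was 0.89 (exact permutation p = 0.00566, adjusted over 9 relations 0.0333) and Spearman's rho was 0.69 (exact permutation p = 0.0173, adjusted 0.075). Over all 14 calves r was 0.87 (exact permutation p = 0.00461, adjusted 0.025) and rho was 0.87 (exact permutation p = 0.00109, adjusted 0.00978). Without the 2 calves farthest from the median of DCN, CON calves 1 and 31, r was 0.53 (exact permutation p = 0.107). Without CON calf 1 alone r was 0.53 (exact permutation p = 0.0758), and without CON calf 31 alone 0.89 (exact permutation p = 0.0119), so that the relation over 12 calves rests on CON calf 1. Over 14 calves without CON calves 1 and 19 it was 0.57 (exact permutation p = 0.0686). Within CON r was 0.97 over 6 calves (exact permutation p = 0.0111, adjusted 0.0333) and 0.93 over 7. Over 6 of the 7 CON calves it was 0.98 without calf 1 and 0.97 without calf 19. Each of these keeps the other low calf, and r within CON without both was not computed. Within VTM, where DCN hardly varied, r was 0.47 over 6 calves (exact permutation p = 0.335). There rho was 0.14 (exact permutation p = 0.803).

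TNC and DPT varied together among the VTM calves. Within VTM r was 0.92 over 6 calves (exact permutation p = 0.00972, adjusted 0.0333), with rho 0.94 (exact permutation p = 0.0167, adjusted 0.075). Over the 7 VTM calves r was 0.92 and rho 0.96 (exact permutation p = 0.00556 and 0.00278). VTM calf 34 was lowest and VTM calf 28 highest in both genes. Without VTM calf 28 r was 0.86 over the other 6. Within CON r was -0.40 over 6 calves (exact permutation p = 0.321) and rho was -0.89 (exact permutation p = 0.0333, adjusted 0.075). Over the 7 CON calves r was -0.47 (exact permutation p = 0.284) and rho -0.82 (exact permutation p = 0.0341, adjusted 0.0768). The difference between the correlations of VTM and CON, 1.31, did not pass a permutation test of the group labels over 924 assignments (p = 0.0563). Values were first centred and scaled within their groups, so this p is approximate, and the test was added after these values were seen. With both groups together and their means removed, r was 0.08 (exact permutation p = 0.777, rho 0.20, exact permutation p = 0.556). For DCN and TNC r was -0.21 (exact permutation p = 0.468), with rho -0.29 (exact permutation p = 0.353). Within CON the DCN and TNC values gave r -0.47 and rho -0.83 (exact permutation p = 0.289 and 0.0583), and within VTM r 0.44 (exact permutation p = 0.372). Over the 7 CON calves DCN and TNC gave r -0.52 (exact permutation p = 0.234) and rho -0.79 (exact permutation p = 0.0480, adjusted 0.0864).

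**Figure D3:**
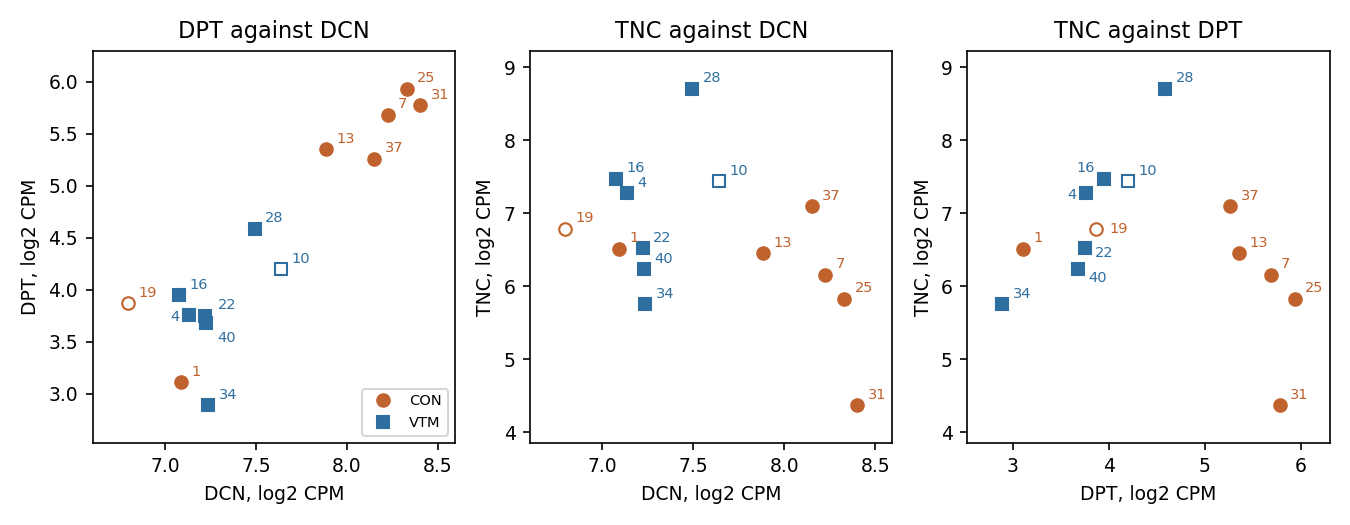
Log2 CPM (TMM over 14 libraries, prior count 2) of each pair of genes in 14 calves, circles for CON and squares for VTM, open for the 2 calves that the study left out. Among the CON calves DPT is lowest in calves 1 and 19, the 2 that are lowest in DCN. TNC follows DPT among the VTM calves, from calf 34 to calf 28, while CON calf 31 is lowest in TNC and high in DCN and DPT.

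The number of other genes that varied tightly with each member was counted within groups of 6 calves, at an absolute Pearson r of at least 0.9. In CON, 1933 genes did so with TNC, 117 with DCN and 122 with DPT, where the median gene had 450. In VTM the numbers were 167, 36 and 95, where the median gene had 351. TNC thus had more such partners than 82.6% of the genes in CON and more than 25.5% in VTM, and DCN more than 0.353% in VTM. The numbers moved with the calves used. With CON calf 19 in place of CON calf 31, again 6 CON calves, TNC had 652, DCN 276 and DPT 143, and the median gene 441. In VTM with calf 10 in place of calf 28, TNC had 103, DCN 45 and DPT 53, and the median gene 352. These are counts over few calves, with no test.

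The genes most like each member were ranked by Pearson's r over the 12 calves with the group means removed, among 13306 other genes. SPARC, a secreted collagen-binding glycoprotein, was first for DCN, at r 0.93, and it stayed first over all 14 calves and without VTM calf 40. DPT was the second for DCN, at 0.89, followed by IFT43, a ciliary transport protein, NR2F1, an orphan nuclear receptor, and CCDC8, all at r between 0.88 and 0.89. For DPT the first was DCN, followed by MGP, a matrix protein that restrains calcification, at 0.88, NR2F1 at 0.86, a gene without a name at 0.85 and SPARC at 0.83. MGP was first for DPT over 14 calves. For TNC the first was SLC39A11, a zinc transporter, at 0.90, and the other 4 had no name. IGF1 was the named gene next in order, at 0.83 and rank 27. The order below the top moved with the calves used. Of the 5 genes most like each member, 1 for DCN, 3 for DPT and 2 for TNC were also among the 5 over 14 calves, and 1, 2 and 1 without VTM calf 40. Calves share tissue sampling, depth and library preparation, and r with DCN was between -0.54 and 0.53 for the middle 90% of the genes.

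Other genes of the interstitial matrix were taken from lists by function. Of 83 such genes besides the 3 members, 16 had an identifier paired with a name and all 16 were tested. They came from the tables of the study, which drew them from these calves. Those tables hold genes that the study had already picked. Neither the directions of these 16 nor their number past the threshold of the study is therefore independent evidence. With edgeR's quasi-likelihood test, 12 were past the threshold of the study and lower in VTM and 2 were past it and higher, where 2.85% and 0.864% of all genes tested, or 3.71% in both directions, were past it. That threshold asks for p no higher than 0.05 before adjustment and a log2 difference of 0.5 or more in either direction. None of the 16 passed after adjustment over all genes, where edgeR gave an adjusted p of 0.791. Their median log2 fold change was -0.69, against -0.02 over all genes tested. Since a name mostly required being picked by the study, nothing is read from the gap to all genes in these shares or medians. With DESeq2, the tool of the study, all 14 of the genes that were lower in VTM were past the threshold. Over all 14 calves 6 were past the threshold and lower in edgeR's test, and by total counts without TMM also 6. Without CON calf 7 there were 7, without VTM calf 22 there were 6, and without both CON calf 31 and VTM calf 40 there were 11.

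By role, the proteoglycan list of DCN held 1 other named gene, ECM2, which was higher in VTM at a log2 fold change of 0.61 (standard error 0.26). The tenascin list held TNXB, the relative of TNC found in connective tissue, which was lower at -0.80 (standard error 0.22) where TNC was higher. Of the glycoproteins, SPARC was lower at -0.63 (standard error 0.19), MGP at -1.06 (standard error 0.29) and the elastic fibre protein FBLN2 at -0.63 (standard error 0.28). For FBLN1 the value was -0.69 (standard error 0.33), and in edgeR's test it missed the threshold. Of the 10 interstitial collagens listed, 5 had a name, namely COL1A1, COL1A2, COL3A1, COL6A1 and COL6A2. These 5 were past it and lower, from -1.12 to -0.54. The rest of that list was not examined, and the names came from genes the study had picked.

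Of the growth factors that bind decorin, CCN2 was lower at -1.41 (standard error 0.64). In edgeR's test TGFB3 missed the threshold with -1.17 (standard error 0.63). With DESeq2 both FBLN1 and TGFB3 were past it, and the study names TGFB3 among the genes behind its enriched processes. CCN2 and TGFB3 both had 0 counts in VTM calf 40, the library with the most genes at 0. The gelatinase MMP2 was lower at -0.72 (standard error 0.32). Of the enzymes that build the chains decorin carries, CSGALNACT1, which starts chondroitin sulphate chains, was higher at 0.85 (standard error 0.25). CHST14, which sulphates dermatan, was lower at -0.50 (standard error 0.17). Of the receptors of tenascin-C, 0 of 12 had a name paired with an identifier.

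Likeness over calves was also taken with group means removed. The middle 90% of all genes had r between -0.67 and 0.69 with TNC, wider than with DCN. SPARC and MGP followed DCN, at r 0.93 and 0.88, and not TNC, at -0.11 and -0.15. The 5 collagens had r between 0.33 and 0.54 with DCN and between 0.45 and 0.64 with TNC, all inside the middle 90% for TNC. ECM2 and CSGALNACT1, the genes that were higher in VTM, had r of -0.44 and -0.49 with DCN, and of 0.48 and 0.48 with TNC, which also lie inside those ranges.

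**Figure D4:**
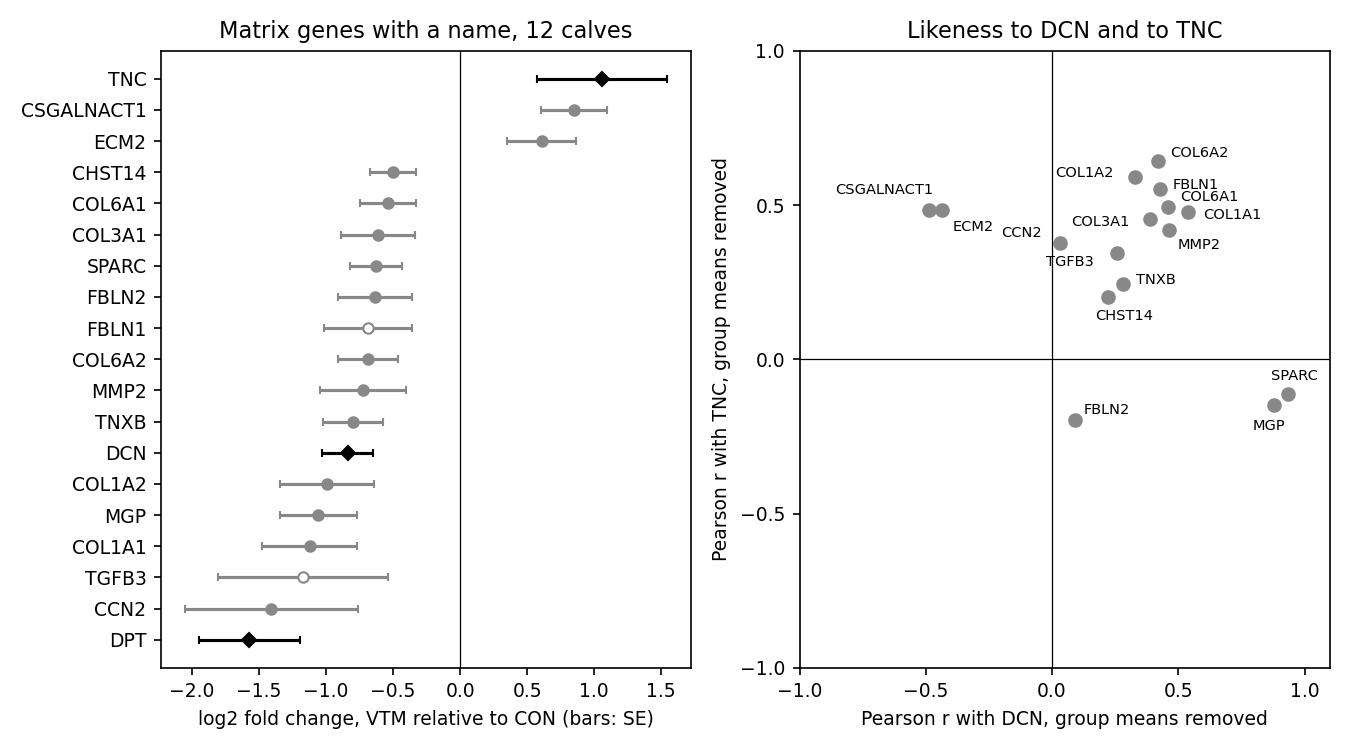
Left, log2 fold change of 19 matrix genes in VTM relative to CON over 12 calves, with standard errors as bars and diamonds for DCN, DPT and TNC. Open symbols are genes not past the threshold of the study in edgeR's test. Right, Pearson r of the 16 other genes with DCN and with TNC over 12 calves with group means removed. SPARC and MGP lie far to the right, at 0.93 and 0.88, and the collagens in the upper right.

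Markers of the cells that the samples could hold were named for few genes of each list, and these too came from the tables of the study. On the scale of the 12 calves, the portal fibroblast genes MFAP4 and ELN, 2 of 7 on their list, summed to 111 to 314 CPM in CON and 86.4 to 205 CPM in VTM. CON calf 1 was the lowest CON calf, at 111 CPM. With group means removed, r was 0.84 between MFAP4 and DCN and 0.71 between MFAP4 and DPT. For ELN, the larger part of the sum, r was 0.48 with DCN and 0.56 with DPT. The sum itself had r 0.55 and 0.62. The stellate cell genes LRAT and RELN, 2 of 7, summed to 11.1 to 68.0 CPM in CON and 70.5 to 84.7 CPM in VTM, and there CON calf 1 was the highest CON calf. The r of this sum with DCN was -0.67 and with TNC 0.64. For RELN, on average the larger part of this sum, r was -0.63 with DCN and 0.66 with TNC. For LRAT r was -0.39 with DCN and -0.23 with TNC, so the 2 genes differed in sign with TNC. These values with TNC lie inside the range of most genes given above, -0.67 to 0.69. With DCN, the sum and RELN lie below the range of -0.54 to 0.53, and LRAT lies inside it. TAGLN of smooth muscle, 1 of 5, was at 51.1 to 151 CPM in CON and 33.8 to 75.7 CPM in VTM. Its r was 0.44 with DCN and 0.54 with DPT. STAB1 of endothelium, 1 of 7, was at 76.0 to 250 CPM in CON and 65.2 to 97.2 CPM in VTM, with r 0.45 with DCN and 0.35 with DPT. KRT19, KRT7 and SOX9 of bile ducts, 3 of 5, summed to 43.8 to 98.6 CPM in CON and 26.9 to 67.5 CPM in VTM. On average SOX9 was higher in VTM, at 3.43 CPM against 2.35 CPM in CON, while KRT19 and KRT7 were lower. With DCN r was 0.68 for KRT19, 0.27 for KRT7 and -0.25 for SOX9. With DPT the values were 0.63, 0.21 and -0.18, and KRT19 was above ELN in both. TTR of hepatocytes, 1 of 6, was at 217 to 2212 CPM in CON and 142 to 932 CPM in VTM, with r 0.16 with DCN and 0.15 with DPT. VTM calf 28, the calf highest in TNC, was the highest VTM calf of the study for the portal fibroblast sum at 205 CPM, for TAGLN at 75.7 CPM and for the bile duct sum at 67.5 CPM. The part of cell make-up in the levels of DCN, DPT and TNC was not tested. No named gene stood for mesothelium, macrophages or red cell precursors.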

How the data were processed

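Liver polyA RNA of 14 calves was made into stranded libraries. Per the labels and methods, reads were trimmed and then mapped to the ARS-UCD1.2 genome with STAR 2.7.5. The authors deposited the counts of reads for each Ensembl gene of release 109 as they were, neither normalized nor pooled. The strand column taken is not given in the sources used here. Groups are the treatment labels and each calf is 1 replicate. As in the study, fits used 12 calves, with all 14 as an alternative.

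Computed here were edgeR 4.0.16 fits (filterByExpr, TMM, quasi-likelihood test, diet as the only term) in R 4.3.3, limma 3.58.1 on absolute deviations of log2 CPM (prior count 2) from the group median, and Pearson and Spearman correlations with group means removed and 2-sided exact permutation of calves within groups. With 720 permutations within a group the smallest p is 0.00139. The scripts were tested on simulated data. DESeq2 1.42.0 was an alternative. Genes, lists and tests were chosen with earlier results of these data known. The rule for named genes took DCN, DPT and TNC, set members of the matrix lists, any listed gene past the threshold, and the 5 genes most like each member. IGF1, FBLN1 and the markers RELN, SOX9 and TTR fall outside it and were named after their values were seen. A planned search of promoter motifs was not run, since no sequences were used here. Coordinates were not used here either, since the gene table given was of another assembly. Depth was 13382264 to 20125409 counts per calf.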

Additional observations from a re-analysis of the deposited data

Results flagged for a closer look

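In CPM, VTM calf 28 stood apart from its group in 2 of the 3 genes. There its gap to the nearest calf exceeded Dixon's limit for the group's range. In TNC it was at 409 CPM with scaling over the 12 calves, where the next VTM calf was at 177 CPM, and at 418 CPM over all 14, with the next at 178 CPM. In DCN it was at 176 CPM over the 12 calves, with the next at 149 CPM. Over all 14 calves it did not stand apart in DCN, since VTM calf 10 was above it at 199 CPM. In DPT it was the highest VTM calf, at 23.4 CPM over the 12, within the limit. For normally distributed values chance alone flags about 1 in 20 groups, and 12 groups were examined. These share calves, since each group was taken over the 12 calves and again over all 14. VTM calf 28 was also the highest VTM calf of the study for the portal fibroblast (205 CPM), smooth muscle (75.7 CPM) and bile duct (67.5 CPM) markers with a name, and their part in its TNC level was not tested. VTM calf 10, left out by the study, was higher in the bile duct markers, at 80.9 CPM scaled over all 14 calves. It was lower in the portal fibroblast and smooth muscle markers. CON calf 1, the low CON calf in DCN and DPT, was within the limit in both in CPM. The limit was not applied to log2 CPM, the scale of the spread and co-variation. On that scale, over the 12 calves, DPT was 3.09 in CON calf 1 and 5.23 in the next CON calf. TNC was 8.68 in VTM calf 28 and 7.47 in the next VTM calf.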

How the results depend on the processing

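The log2 fold changes of DCN, DPT and TNC kept their sign in every fit that was run. Over all 14 calves they were -0.64, -1.37 and 0.99, against -0.84, -1.57 and 1.06 over the 12. With 1 calf left out they ranged from -0.98 to -0.76 for DCN, from -1.79 to -1.43 for DPT and from 0.52 (without VTM calf 28) to 1.30 for TNC. Genes past the threshold numbered 494, of which 379 lower in VTM. The numbers were 1003 and 700 with no gene filter, 275 and 216 over all 14 calves, and 310 and 224 by total counts (chosen after seeing the data). With 1 calf left out they ranged from 286 to 1039 and from 202 to 688, lowest without CON calf 31 and highest without CON calf 37. Without CON calf 25 they were 305 and 229, and without CON calf 1 the first was 743. Of the 16 other matrix genes, 12 were past the threshold and lower, 14 with DESeq2, 6 over all 14 calves and 6 by total counts. With 1 calf left out the number was 6 to 12, lowest without VTM calf 22. No spread passed the test under any setting. Genes with a larger spread in CON at an unadjusted p of at most 0.05 numbered 328, 1371 with deviations from the group mean, and 75 without CON calf 31 and VTM calf 40 (chosen after seeing the data), and 31 to 543 with 1 calf left out. It was 31 without CON calf 25, 38 without CON calf 31, 153 without CON calf 37, 203 without CON calf 1, 218 without VTM calf 34 and 543 without VTM calf 40. The difference in spread (VTM minus CON) turned to 0.10 for DPT without CON calf 1 and to -0.060 for TNC without VTM calf 28, and it ranged from -0.27 to -0.06 for DCN, from -0.40 to 0.10 for DPT and from -0.06 to 0.50 for TNC with 1 calf left out. For DCN and DPT r was 0.53 without the 2 farthest calves (exact permutation p = 0.107), and 0.53 to 0.96 with 1 calf left out, not past 0.05 without CON calf 1 (exact permutation p = 0.0758). For DCN and TNC with group means removed, no setting was past 0.05. There r turned from -0.21 to 0.14 without the 2 farthest calves, 0.15 by total counts and 0.0073 without CON calf 31 and VTM calf 40. With 1 calf left out r ranged from -0.45 to 0.016. For DPT and TNC it ranged from -0.15 without VTM calf 28 to 0.43 without CON calf 1, and was -0.091 without VTM calf 34. The 5 genes most like DCN, DPT and TNC kept 1, 3 and 2 over all 14 calves and 1, 2 and 1 without VTM calf 40. Where a value moved, the cause was not tested. No paired analysis was possible because the calves of the 2 diets share no numbers in the labels.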

Other observations

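The low place of CON calf 1 was shared by other matrix genes. Of the 14 named matrix genes besides the members that were lower in VTM, CON calf 1 was the lowest of the 6 CON calves in 11, among them SPARC, MGP, COL1A1 and MMP2. It was the lowest CON calf in 11.7% of all genes tested. VTM calf 28 was the highest of the 6 VTM calves in 10 of the 14, against 14% of all genes tested, and both held in 9. In SPARC, CON calf 1 was at 525 CPM and the 6 VTM calves at 548 to 769 CPM, and in MGP at 51.9 CPM, with the VTM calves at 46.9 to 90.1 CPM. CON calf 19, scaled over all 14 calves, was at 506 CPM in SPARC and 42.5 CPM in MGP. In CSGALNACT1, one of the 2 matrix genes higher in VTM, CON calf 19 was at 69.7 CPM, where the VTM calves of the study ranged from 26.7 to 63.7 CPM on the scale of the 12 calves. These counts were made after the values were seen, and the genes share calves and libraries.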
